A study of Mus musculus with 4 samples.

Results

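The EGF receptor family and its ligands were examined as 10 genes, chosen by symbol from the 41457 rows of the count table: the receptor genes Egfr, Erbb2 and Erbb3, and the ligand genes Areg, Ereg, Hbegf, Tgfa, Btc, Epgn and Egf. The samples were cells of mouse colon tumours kept in RPMI medium. The compared groups were M8, M32 and M83, each labelled as an ENU mutant, and 1 control without that label. ENU (N-ethyl-N-nitrosourea) is an alkylating mutagen. Each group was 1 column of counts from poly(A) RNA, called a library here. Whether a line is 1 clone and which culture it was derived from are not stated in the labels, which name no drug or growth factor for any library.

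EGF family ligands are made as membrane-anchored precursors, which sheddases of the ADAM family cut to release the soluble growth factor. Amphiregulin, epigen, transforming growth factor alpha and EGF bind EGFR, while epiregulin, betacellulin and HB-EGF bind EGFR and ErbB4. Ligand binding makes receptors pair and activate the RAS-ERK and PI3K-AKT pathways. ErbB2 has no known ligand of its own and is the favoured partner of the other receptors, and ErbB3, a neuregulin receptor, has a kinase with little activity. In the gut these receptors drive growth and repair of the epithelium, and several ligand genes are themselves switched on by ERK signalling.

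In M32, transcripts of 5 ligand genes were lower than in every other library, while Erbb2 differed little. Areg in M32 was at 0.216 of its control level, Btc at 0.276 of it, Tgfa at 0.396, Hbegf at 0.424 and Ereg at 0.635. In M8 and M83 the same ligand genes stayed within 2-fold of control, apart from Btc, which was 2.13-fold higher in M83. Egfr and Erbb3 were nearly without counts in all 4 libraries. These are comparisons of single libraries, with no replicate check and no p-value. In bulk RNA, fewer cells of a type and less RNA per cell cannot be told apart.

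The libraries held between 27312207 (M32) and 28879954 (M8) counts in the mutant lines and 25818148 in control. Levels are given as CPM, counts per 1000000 of a library, after scaling with TMM factors. The limit that a count of 0 sets, 3 counts, lay at 0.104 CPM in M83 and 0.118 CPM in control. The cells carried few epithelial transcripts. Of 16 epithelial markers 2 reached 50 counts, Krt18 and Krt20, and Epcam and Cdx2 had 0 counts in every library. All 12 mesenchymal markers reached 50 counts, and none of the 11 leukocyte and endothelial markers did. Leukocyte and endothelial markers together summed to between 0.588 and 1.44 CPM in the mutant lines and 0.509 CPM in control.

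Among the receptor genes, Erbb2 was the one with a clear signal. Egfr, which encodes the EGF receptor, had 3, 6 and 6 counts in M8, M32 and M83, against 7 in control. These are at most 0.274 CPM, close to the floor, and the libraries could not be told apart at this depth. Erbb3 had 6, 14 and 17 counts in M8, M32 and M83, against 18 in control. Its ratio was 0.299 in M8 over control (95% exact binomial interval 0.0971 to 0.786), from fewer counts than the 50 asked for in the calls. Erbb4, which is no member but completes the receptor family, had 4 counts in M83 and 0 in M8, M32 and control. Erbb2 had 1024, 938 and 1176 counts in M8, M32 and M83, against 990 in control. Its level was 37.1 CPM ± 3.19 (SD, n = 3) in the mutant lines and 38.8 CPM in control. The ratios of Erbb2 over control ran only from 0.891 in M32 (interval 0.814 to 0.976) to 1.05 in M83 (interval 0.962 to 1.14).

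**Figure D1:**
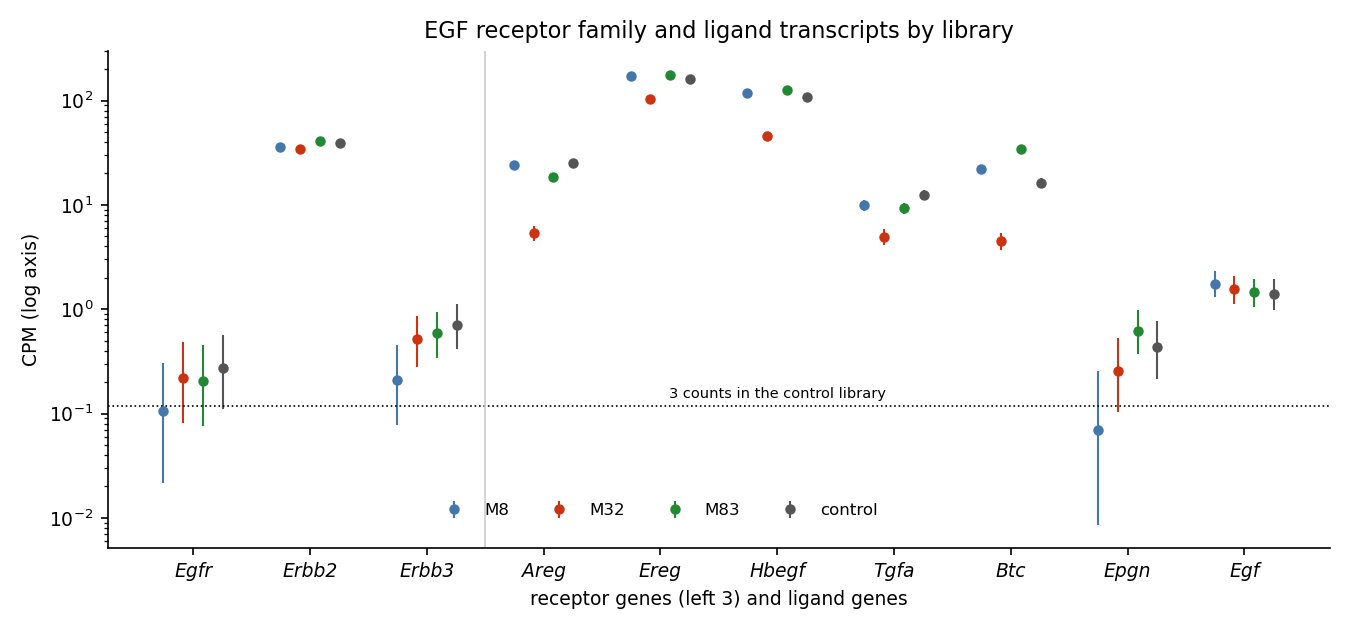
Level of each receptor and ligand gene in CPM on a log axis, with M8, M32, M83 and control as coloured points and exact Poisson 95% intervals as bars, which cover counting error only. The M32 point is the lowest of the 4 libraries for Areg, Ereg, Hbegf, Tgfa and Btc, while the Erbb2 points lie between 34.6 and 40.7 CPM and the Egfr points near the floor of 3 counts.

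Set per kilobase of exon, the levels of Ereg, Hbegf and Areg stood above that of Erbb2 in M8, M83 and control. In control, Ereg stood first at 39.1 CPM per kb, followed by Hbegf at 22.2 and Areg at 20.5 CPM per kb. The Poisson intervals of Hbegf (21.4 to 23.0) and Areg (19.0 to 22.2) overlapped, so their order in control is not resolved. Erbb2 followed at 7.45 CPM per kb, Btc at 3.61 and Tgfa at 1.92. Epgn, Egf and Erbb3 had levels of 0.239, 0.125 and 0.117 CPM per kb with overlapping intervals, and Egfr was last at 0.0242. In M32 the order was Ereg at 24.8, Hbegf at 9.41, Erbb2 at 6.64 and Areg at 4.43 CPM per kb. Areg thus lay below Erbb2 in M32, and above it in the other libraries. Btc at 0.995 and Tgfa at 0.761 CPM per kb followed in M32, with overlapping intervals, and the difference between them was not tested. Summed over the 7 ligand genes, the level was 92.3, 40.7 and 94.2 CPM per kb in M8, M32 and M83, against 87.7 in control. Ereg made up 61.0% of that sum in M32, against 44.6% in control. The share of Areg was 10.9% in M32, against 23.4% in control.

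Each line was set against control with a rule of size, since a line has 1 library. A gene was called when its TMM-scaled log2 ratio was at least 1 in size, the higher library had at least 50 counts, and the exact 95% binomial interval of the ratio left out 1. In M32 or control, 6 members reached 50 counts, and in M32 all 6 lay below control, as did 51.9% of all genes with 50 counts. Of the 6 members, 4 were called lower, namely Areg, Btc, Tgfa and Hbegf, where 1.15% of the 10848 genes with 50 counts were called lower. None was called higher, against 4.86% of all genes. The median log2 ratio of the 6 members was -1.28 in M32, beside -0.02 over all genes with 50 counts. In M8, 0 of 7 members were called, where 3.73% of genes were called higher and 2.05% lower. In M83, 1 of 6 was called, Btc, which was higher, where 5.19% of genes were called higher and 1.27% lower. The median of the members was 0.08 in M8 and 0.10 in M83. The 3 comparisons share the control library. Members were chosen with earlier results of these data known, so their shares beside those of all genes are descriptions only.

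Amphiregulin, encoded by Areg, is an EGFR ligand of low affinity and a known product of wounded and inflamed epithelium. Areg had 685, 146 and 536 counts in M8, M32 and M83, against 637 in control. M32 was low, and the other libraries lay within 1.35-fold of one another. The ratio in M32 over control was 0.216 (interval 0.179 to 0.258, log2 ratio -2.20), and 0.240% of genes with 50 counts had a lower log2 ratio. Areg was the single member that was also past 4-fold, a limit that 0.277% of genes passed downward in M32. The gene (ENSMUSG00000029378) is protein-coding and spans chr5:91139599-91148432 on the plus strand of GRCm38.

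Betacellulin, encoded by Btc, showed the widest spread of the members. Btc had 629, 122 and 1004 counts in M8, M32 and M83, against 416 in control. M32 was lowest and M83 highest, and no pair of the 4 Poisson intervals overlapped. The ratio over control was 0.276 in M32 (interval 0.224 to 0.338) and 2.13 in M83 (interval 1.90 to 2.39). In M8 it was 1.36 (interval 1.20 to 1.54), short of the 2-fold limit. The M83 value was not past 4-fold, a limit that 1.08% of genes passed upward in M83.

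Transforming growth factor alpha is a soluble EGFR ligand often made by the cells that respond to it. Its gene Tgfa had 283, 134 and 268 counts in M8, M32 and M83, against 318 in control. M32 was lowest, with a ratio over control of 0.396 (interval 0.321 to 0.487). M8 and M83 also lay below control, at ratios of 0.798 and 0.744. On chromosome 6, where Tgfa lies, the 512 genes with 50 counts had a median log2 ratio of -0.24 in M32, and the 24 within 1 Mb of Tgfa had a median of -0.36, beside -1.32 for Tgfa. The part of this shift in the Tgfa value was not tested.

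HB-EGF is a heparin-binding ligand whose membrane precursor is also the diphtheria toxin receptor in humans. Hbegf had 3371, 1234 and 3685 counts in M8, M32 and M83, against 2736 in control. M32 was the low library again, with a ratio over control of 0.424 (interval 0.396 to 0.454). M8 and M83 lay above control by ratios of 1.10 and 1.19.

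Epiregulin, encoded by Ereg, was the most abundant ligand transcript and the least lowered of the 5. Ereg had 4869, 2781 and 5131 counts in M8, M32 and M83, against 4119 in control. The ratio in M32 over control was 0.635 (interval 0.605 to 0.667), which does not meet the 2-fold limit. An antisense transcript, Gm19610, shares 141 bases with Ereg and had 33, 15 and 12 counts in M8, M32 and M83, against 41 in control, few beside Ereg.

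The remaining ligand genes were weakly expressed. Egf, the gene of the founding ligand, had 50, 42 and 42 counts in M8, M32 and M83, against 36 in control. Every interval of its ratio over control held 1, in M32 running from 0.686 to 1.76. Epgn, encoding epigen, had 2, 7 and 18 counts in M8, M32 and M83, against 11 in control. Its ratio in M32 over control, 0.599, had an interval of 0.197 to 1.69, which held both 1 and the Areg ratio of 0.216. In M8 the Epgn ratio was 0.163 over control (interval 0.0175 to 0.747) and 0.113 over M83 (interval 0.0127 to 0.471). Both came from fewer counts than the 50 asked for in the calls.

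**Figure D2:**
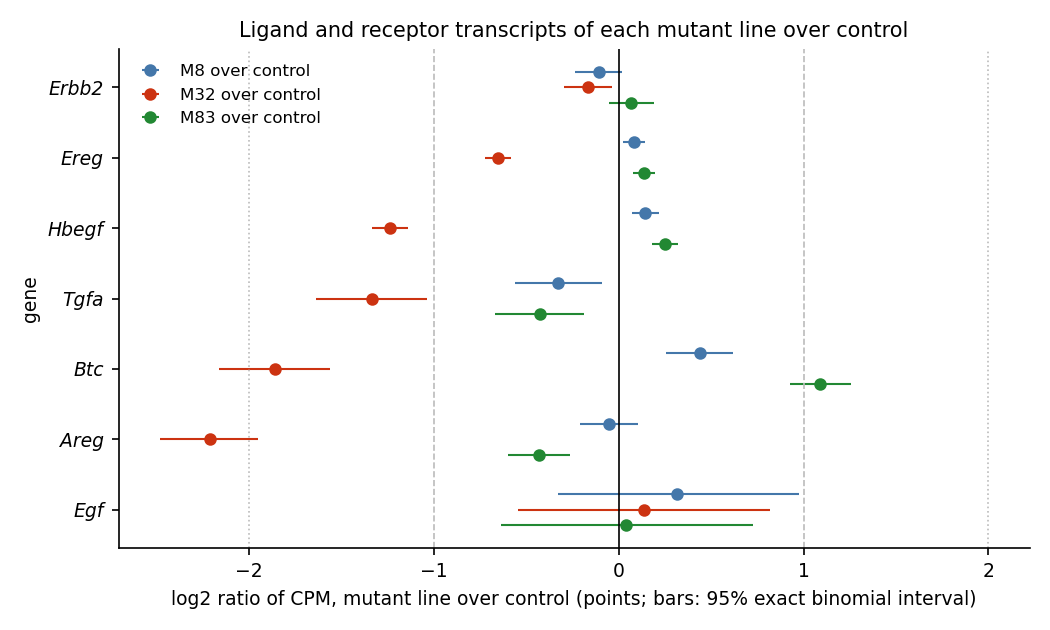
Log2 ratio of each mutant line over control for the 7 members with 50 counts in at least 1 library, with exact 95% binomial intervals as bars and dashed lines at 2-fold. The M32 points of Areg, Btc, Tgfa and Hbegf lie left of the lower 2-fold line, those of M8 lie inside both lines, and the M83 point of Btc lies beyond the upper line.

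Areg, Btc, Tgfa, Hbegf and Ereg were lower in M32 than in the other mutant lines too, a comparison that leaves out the control library. It rests on the same single M32 library, so it is no independent check. In M32 against M8, 3 of 7 members were called lower, namely Areg (ratio 0.224), Btc (0.204) and Hbegf (0.384), where 2.13% of genes were called lower. In M32 against M83 the same 3 of 6 members were called, with Areg at 0.290, Btc at 0.130 and Hbegf at 0.357, where 3.16% of genes were called lower. Tgfa had ratios of 0.497 in M32 over M8 and 0.533 in M32 over M83, both short of the 2-fold limit on the log2 scale used for calls. Areg, Btc and Hbegf were thus at least 2-fold below each other library in M32, as were 0.538% of the 11156 genes with 50 counts in any library. In M8, M83 or control no member was at least 2-fold above or below each other library, as 4.63% of genes were. Between M8 and M83, 0 of 7 members were called, where 2.96% of genes were called higher and 5.03% lower.

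The 3 mutant lines carry a single genotype label, and no family member passed the test of these lines as a group against control. The fit of edgeR's quasi-likelihood test took in 9 of the 10 members, Egfr being below its filter on low counts. Of the 9, 0 passed at an adjusted p under 0.05, where 0.00737% of the 13576 tested genes passed, and 0 of 9 had an unadjusted p under 0.05. The edgeR adjusted p was 1.00 for each of the 9. DESeq2 called 0 of the 7 members that it gave an adjusted p, where 0.436% of its genes passed. The log2 difference was -0.64 (SE 0.686) for Areg, -0.63 (SE 0.443) for Tgfa and 0.33 (SE 0.92) for Btc. The mean level of Areg was 16.0 CPM ± 9.59 (SD, n = 3) in the mutant lines and 25.0 CPM in control. For Hbegf it was 97.1 CPM ± 44.9 (SD, n = 3) in the mutant lines and 107.2 CPM in control. Without M32 the log2 difference of Hbegf was 0.17 and that of Ereg 0.08, against -0.14 and -0.10 with all lines. The spread in this test is that between the 3 lines, and the same spread is taken for the single control.

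Areg, Ereg, Epgn and Btc lie beside each other on chromosome 5 within 376 kb, so the genes around them were examined as well. Within 250 kb of the 4 ligand genes the annotation holds 10 protein-coding genes, 6 of them outside the family, and 5 of the 10 reached 50 counts in M32 or control. The chemokine gene Cxcl1 had 253, 72 and 280 counts in M8, M32 and M83, against 324 in control, a ratio of 0.209 in M32 over control (interval 0.160 to 0.271). Mthfd2l, a folate enzyme gene between Cxcl1 and the ligand genes, had 758, 765 and 918 counts in M8, M32 and M83, against 965 in control, a ratio of 0.746 in M32. All 5 cluster genes with 50 counts lay below control in M32, as did 51.9% of all genes with 50 counts. The 5 log2 ratios were -2.23 for Cxcl1, -0.42 for Mthfd2l, -0.65 for Ereg, -2.20 for Areg and -1.84 for Btc. Cxcl1, Mthfd2l and Areg lay below control in M8 and M83 too, Mthfd2l at log2 ratios of -0.51 and -0.25. The part of a shift of the whole region in the ligand values was not tested. The 9 genes outside the family with 50 counts within 1 Mb of Areg had a median log2 ratio of -0.22 in M32, and chromosome 5 as a whole a median of -0.06. Hbegf on chromosome 18 and Tgfa on chromosome 6 lie outside this cluster.

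**Figure D3:**
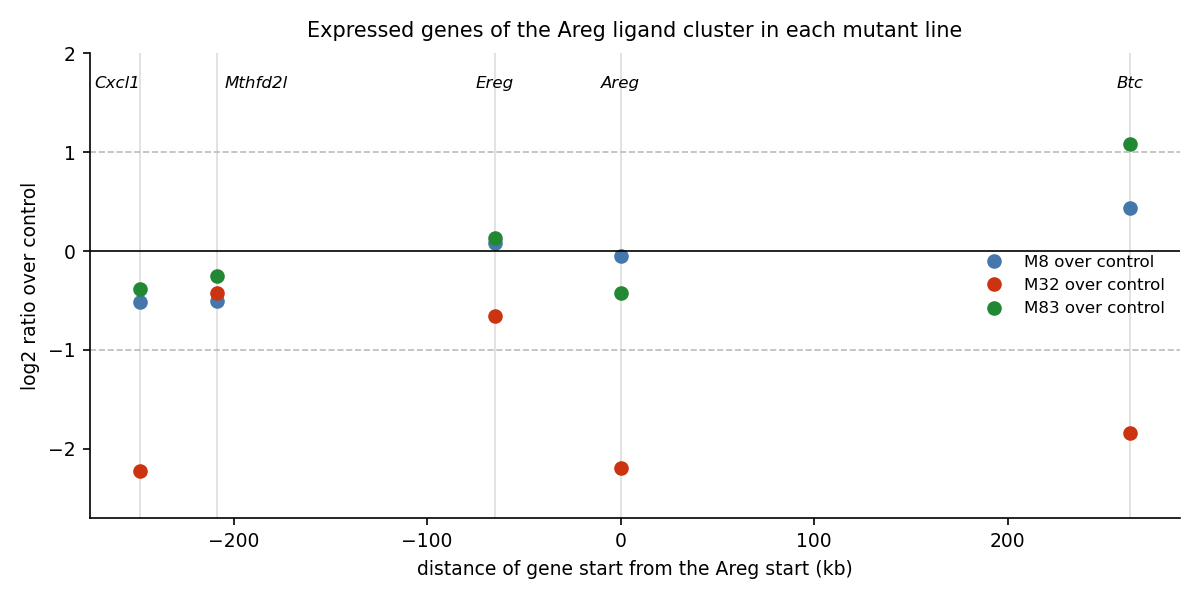
Log2 ratio over control of the 5 genes of the ligand cluster with 50 counts in M32 or control, plotted by the distance of their start from the Areg start in kb, for M8, M32 and M83. The M32 points of Cxcl1, Areg and Btc lie below the lower 2-fold line and that of Mthfd2l at -0.42 lies above it.

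Promoters are shown for 3 of the 4 ligand genes called lower in M32, since these genes were low in the same line. That of Hbegf, the fourth, is not shown here. RefSeq promoter sequences (GRCm38.p6, 250 bases before to 50 after the start) were at hand for 7 of the 10 members, among them Areg, Btc and Tgfa. Both strands were searched for the AP-1 motif TGANTCA, the cAMP response element TGACGTCA, the TATA box TATAAA and the EGR motifs GCGGGGGCG and GCGTGGGCG, which do not overlap one another in these promoters. Matches are in capitals. The windows are chr5:91139349-91139648 on the plus strand for Areg, chr5:91402945-91403244 on the minus strand for Btc and chr6:86194972-86195271 on the plus strand for Tgfa.
Areg: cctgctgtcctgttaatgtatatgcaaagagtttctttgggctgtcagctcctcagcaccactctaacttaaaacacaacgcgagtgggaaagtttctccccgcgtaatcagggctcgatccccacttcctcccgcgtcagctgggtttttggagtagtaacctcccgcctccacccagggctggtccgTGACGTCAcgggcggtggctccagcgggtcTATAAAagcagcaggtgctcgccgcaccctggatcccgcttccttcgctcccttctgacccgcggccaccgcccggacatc
Btc: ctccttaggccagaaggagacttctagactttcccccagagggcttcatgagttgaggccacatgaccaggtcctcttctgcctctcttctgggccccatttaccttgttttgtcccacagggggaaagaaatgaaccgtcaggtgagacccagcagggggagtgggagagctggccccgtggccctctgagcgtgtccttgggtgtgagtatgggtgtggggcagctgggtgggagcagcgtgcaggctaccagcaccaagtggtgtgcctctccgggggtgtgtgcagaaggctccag
Tgfa: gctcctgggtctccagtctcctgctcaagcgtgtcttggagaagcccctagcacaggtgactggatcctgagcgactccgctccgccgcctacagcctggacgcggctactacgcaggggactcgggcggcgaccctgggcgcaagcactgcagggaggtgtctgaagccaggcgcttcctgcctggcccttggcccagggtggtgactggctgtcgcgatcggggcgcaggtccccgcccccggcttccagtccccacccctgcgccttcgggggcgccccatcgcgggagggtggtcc
The Areg promoter holds a full cAMP response element 61 bases before the start and a TATA box 31 bases before it. That response element is held by 1.79% of the 32851 RefSeq promoters, and that TATA box by 13.6%. The windows of Btc and Tgfa hold no match to any of these motifs. AP-1 and EGR motifs are held by 7.81% and 3.47% of all promoters, and by none of these 3.

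Neuregulins, the ligands of ErbB3 and ErbB4, were not below control in M32 where they had 50 counts. Nrg1 had 1445, 1582 and 2209 counts in M8, M32 and M83, against 867 in control, and was called higher in M83 at a ratio of 2.25 (interval 2.08 to 2.43). Nrg2 had 480, 226 and 768 counts in M8, M32 and M83, against 196 in control. It was called higher in M8 and M83, at ratios of 2.19 and 3.46, and its ratio in M32 was 1.08 (interval 0.892 to 1.32). Against the other lines Nrg2 was called lower in M32, at a ratio of 0.494 over M8 (interval 0.420 to 0.580) and of 0.314 over M83 (interval 0.269 to 0.364). Nrg3 had no counts and Nrg4 at most 22. In edgeR 0 of the 3 neuregulin genes tested passed. Nrg1 had a log2 difference of 0.86 (SE 0.304).

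No gene that cuts or moves ligand precursors met the 2-fold rule. Of 8 genes 7 reached 50 counts, and none was called in any line or passed in edgeR. Rhbdl2, short of 50 counts and so outside the rule, had 40, 33 and 19 counts in M8, M32 and M83, against 10 in control. Adam10, a sheddase of betacellulin and EGF, had 2527, 3004 and 2908 counts in M8, M32 and M83, against 2252 in control. Adam9, another membrane metalloproteinase, had 7890, 6733 and 7633 counts in M8, M32 and M83, against 4823 in control, log2 ratios of 0.55, 0.39 and 0.48. The list's median log2 ratio was 0.23, 0.15 and 0.12 in M8, M32 and M83.

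Among inhibitors of the receptors, Errfi1 and Lrig1 had their lowest level in M32. Errfi1 encodes MIG6, a feedback inhibitor that binds the EGFR kinase domain and is itself induced by EGF. Errfi1 had 6760, 2514 and 6092 counts in M8, M32 and M83, against 6964 in control. M32 was low, with a ratio over control of 0.340 (interval 0.324 to 0.356) and over M8 and M83 of 0.390 and 0.440. Lrig1, a membrane protein that promotes receptor breakdown, had 5816, 2959 and 4758 counts in M8, M32 and M83, against 4802 in control, a ratio of 0.580 in M32. All 11 inhibitors with 50 counts lay below control in M32, as did 51.9% of all genes with 50 counts, and 1 was called lower, beside 1.15% of all genes. Several were nearly level, such as the ubiquitin ligase genes Cbl at a log2 ratio of -0.02 and Cblb at -0.01, and the list's median log2 ratio was -0.16. Dcn, of the same list but short of 50 counts, went the other way. It had 13, 48 and 29 counts in M8, M32 and M83, against 2 in control. None of the 12 inhibitors that edgeR tested, Dcn among them, passed.

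No signal carrier downstream of the receptors met the 2-fold rule. Of 30 adaptor and kinase genes 29 reached 50 counts, 0 were called in any line, and 0 of 29 passed in edgeR. Their median log2 ratio was 0.02, -0.06 and 0.03 in M8, M32 and M83. Akt1, a kinase of the PI3K pathway, had 11120, 15189 and 15245 counts in M8, M32 and M83, against 16195 in control, a log2 ratio of -0.70 in M8. Among genes with 50 counts the widest ratio in each line was -0.94 in M8 for Sos2, an activator of RAS, 0.88 in M83 for Stat3, a transcription factor gene, and -0.82 in M32 for Rasa1, a RAS inhibitor. Ptpn11, the phosphatase SHP2 that carries receptor signals to RAS, had 11148, 10319 and 10314 counts in M8, M32 and M83, against 10480 in control.

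Some of the transcripts that ERK signalling induces were low in M32. Of 28 such genes with 50 counts, 8 were called lower in M32, where 1.15% of all genes were, 2 in M8, where 2.05% were, and 1 in M83, where 1.27% were. None of the 28 was called higher, beside 4.86% of all genes in M32, 3.73% in M8 and 5.19% in M83. In M32, 22 of the 28 lay below control, beside 51.9% of all genes with 50 counts. Dusp1, a phosphatase gene, and Etv1 went the other way, each at a log2 ratio of 0.21. Srf, Dusp4, Spred1 and Etv5 were also above control in M32, at log2 ratios of 0.10, 0.03, 0.01 and 0.01. The median log2 ratio was -0.05, -0.67 and -0.13 in M8, M32 and M83. The transcription factor gene Fosb had 3485, 690 and 2070 counts in M8, M32 and M83, against 2207 in control. Egr2, another immediate early gene, had 59, 35 and 41 counts in M8, M32 and M83, against 109 in control, and was low in all 3 lines. Egr1 and Egr3 had ratios of 0.162 and 0.184 in M32 over control. Egr1 was also below control in M8 and M83, at ratios of 0.386 and 0.583, while Egr3 stood at 1.09 and 0.949. None of the 28 passed in edgeR. The lists, too, were chosen with earlier results of these data known, so such shares are descriptions only. Marker levels moved too. The 16 epithelial markers summed to 181, 74.6 and 161 CPM in M8, M32 and M83, against 105 CPM in control. Nearly all of each sum came from Krt18 and Krt20. In M32 these genes went opposite ways, with Krt20 below control at a log2 ratio of -1.01 and Krt18 above it at 0.39. The 12 mesenchymal markers summed to 8816, 10406 and 9728 CPM in M8, M32 and M83, against 8532 CPM in control. The part of these shifts in the ligand values was not tested.

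**Figure D4:**
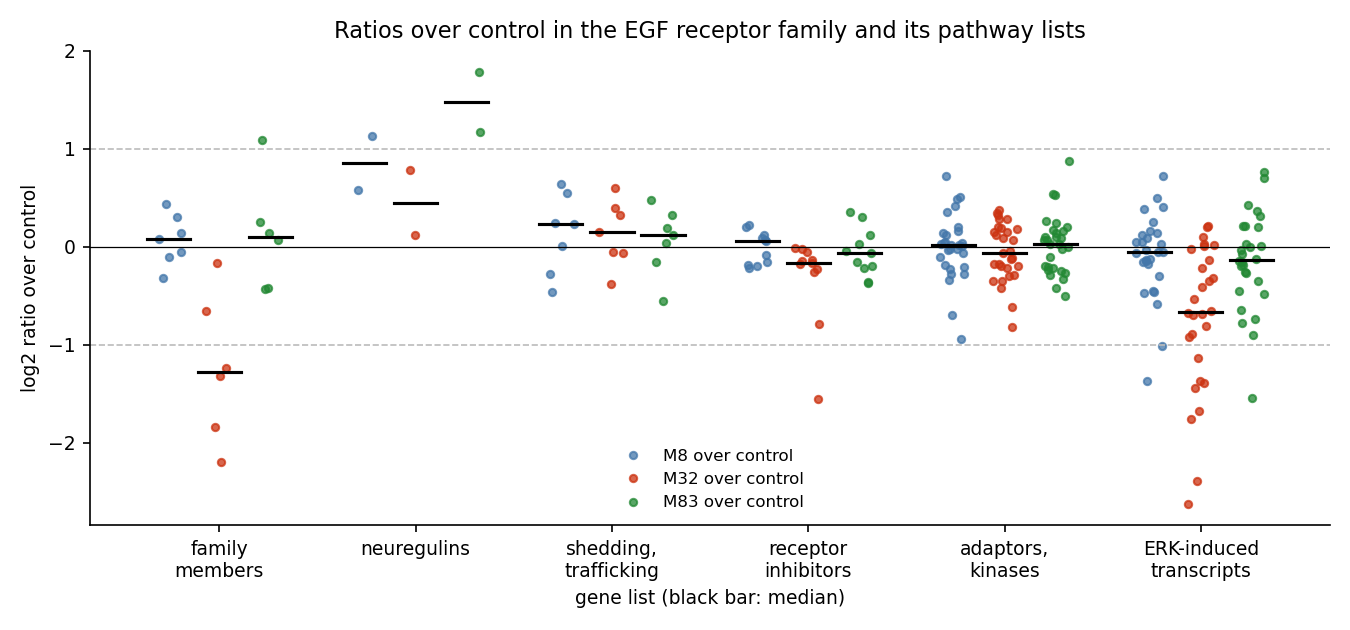
Log2 ratio over control of single genes with 50 counts, by gene list and mutant line, with black bars at the list median and dashed lines at 2-fold. In M32 the family members have a median of -1.28 and the ERK-induced transcripts one of -0.67, while the adaptors and kinases sit at -0.06 and the shedding genes at 0.15.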

How the data were processed

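Libraries of poly(A)-selected RNA were made with NEBNext kits, per the labels' protocols, and sequenced on a NextSeq instrument. The values are raw counts, whole numbers per gene that the authors deposited without scaling, on GRCm38 per the submitters' processing notes. No source used here names the aligner, counter, annotation or strand setting, and without strand an overlap with an antisense gene cannot be resolved. The design text speaks of triplicates, and it is unknown if the single column of a sample sums them.

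Members were found by symbol. Positions and exon lengths (union of exons) come from GENCODE vM21, which holds 41434 of the 41457 identifiers. Totals were 25818148 to 28879954 counts. Intervals and floors reflect counting error alone, as PCR copies are not marked. Ratios used TMM factors and a prior count of 2, and their intervals are exact 95% Clopper-Pearson intervals. The lines were tested against control with edgeR 4.0.16 in R 4.3.3 (filterByExpr, quasi-likelihood F-test, 2 residual degrees of freedom, Benjamini-Hochberg over 13576 genes). DESeq2 1.42.0 was an alternative, as were its size factors, library size alone, other limits and leaving out each line. Scripts were tested on simulated data. From each of 8 gene lists (126 genes) the text names up to 4 genes called in a line, by size, filled up to 2 with the most abundant. Other list genes are named outside this rule, such as those with few counts, nearly level, with the widest ratio or going the other way. The text also names the 5 genes nearest in profile to the member of widest range. Members and lists were chosen with earlier results of these data known. Protein sequences were not used here.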

Additional observations from a re-analysis of the deposited data

Results flagged for a closer look

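Btc was called in opposite directions in a pair of lines. Its log2 ratio over control was -1.84 in M32, with 122 counts against 416 in control, and 1.09 in M83, with 1004 counts against the same 416. Each line is 1 library, so the difference between the lines was not tested, and both ratios share the control.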

How the results depend on the processing

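No paired analysis was possible because the labels give no replicate numbers and there is 1 control. Of the 10 members, 0 passed in the ENU mutant lines against control under each alternative run. Over all genes, edgeR called 1 gene, 2 without a filter on low counts, and DESeq2 called 50. Leaving out each mutant line in turn gave 1 gene each time. It turned the sign of 4 log2 differences, none of which passed. That of Ereg ran from -0.26 without M83 to 0.084 without M32, that of Hbegf from -0.41 without M83 to 0.17 without M32, that of Btc from -0.32 without M83 to 0.78 without M32, and that of Epgn from -1.39 without M83 to 0.033 without M8. With a 4-fold limit in place of 2-fold, calls over the 3 lines numbered 1 in place of 5, with 1 in M32 (Areg) and 0 in M83, which follows from the stricter limit. The same 5 calls were made with DESeq2 size factors, library size alone, a prior count of 0.5 and a minimum of 20 counts. The same 3 members were set apart in M32 under both other scalings. Depth limits Egfr, Erbb3, Epgn and Egf, which had at most 50 counts in any library. The lone control could not be left out.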

Other observations

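Btc had the widest range of log2 CPM among the members with 50 counts. Among 9377 other genes with a symbol and a mean of at least 5 CPM, 5 had the profile nearest to it, by Euclidean distance of centred log2 CPM over the 4 libraries. The nearest was Sox9, a transcription factor gene of intestinal crypts, with 433, 80 and 774 counts in M8, M32 and M83, against 231 in control, at a distance of 0.337. Upp1, the uridine phosphorylase gene, followed with 720, 124 and 834 counts in M8, M32 and M83, against 482 in control. Anks1b had 237, 45 and 255 counts in M8, M32 and M83, against 116 in control. Pthlh, which encodes parathyroid hormone-related protein, had 386, 82 and 755 counts in M8, M32 and M83, against 186 in control. Pbld1 was the fifth, at a distance of 0.764. With 4 libraries such likeness is a description only.

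The keratin gene Krt20, a marker of differentiated gut epithelium, had 3306, 1008 and 3667 counts in M8, M32 and M83, against 1914 in control. Krt18, a keratin of simple epithelia, had 1794, 992 and 911 counts in M8, M32 and M83, against 710 in control, and was thus highest in M8. Pdgfrb, a receptor gene of mesenchymal cells, had 1250, 2341 and 574 counts in M8, M32 and M83, against 424 in control, and Col3a1, a fibrillar collagen gene, had 7748, 12998 and 2047 counts against 1748. Col1a1, another collagen gene, had 25288, 33405 and 32552 counts in M8, M32 and M83, against 10970 in control. These 3 of the 12 mesenchymal markers were called higher in M32, beside 4.86% of all genes. Zeb2 and Twist1, transcription factor genes of the same list, had log2 ratios of -0.63 and -0.37 in M32. For Col1a1 the adjusted p was 0.00295 in DESeq2 and 1.00 in edgeR, while no other gene tested among the marker and pathway lists passed in either tool. The leukocyte and endothelial markers with the highest levels were Pecam1, with 18, 11 and 7 counts in M8, M32 and M83 and 5 in control, and Lyz2, with 14, 19 and 4 counts and 2 in control.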
